A study of Homo sapiens with 6 samples.

Results

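Podocalyxin (PODXL), its relative endoglycan (PODXL2), the 3 ERM genes EZR, RDX and MSN, and the scaffold genes SLC9A3R1 and SLC9A3R2 were examined in fusion-positive rhabdomyosarcoma (FP-RMS) cells. These 7 genes were chosen by name out of the 35268 genes named in the deposited table, and all 7 were among the 13930 genes with enough signal to be tested. Rh30 is an established FP-RMS cell line that carries the PAX3-FOXO1 fusion, and it was the only line measured here. Cells were given 1 µM of a small molecule inhibitor directed at ETS transcription factors, named YK in the columns of the deposited table, or its vehicle DMSO alone, for 24 hours, and polyadenylated RNA was sequenced from 3 libraries of each group. The study asked whether the drug interferes with the joint action of ETS1 and the fusion and with oncogenic behaviour of the cells, and PODXL is among the disease-promoting genes it is concerned with. Nothing in the labels says whether the 3 libraries of a group came from separate cultures, so the p-values measure the spread between these libraries.

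Podocalyxin is a heavily sialylated mucin of the CD34 family, best known from the foot processes of kidney podocytes, and is carried on the surface of many tumour cells. Its short cytoplasmic tail binds ezrin, an ERM (ezrin, radixin, moesin) protein, both directly and through the PDZ scaffolds NHERF1 and NHERF2, which are encoded by SLC9A3R1 and SLC9A3R2. ERM proteins in turn hold on to actin filaments, so the group as a whole ties an anti-adhesive membrane protein to the cell cortex. ERM proteins are switched on by lipid binding and phosphorylation, which RNA levels do not measure.

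PODXL lies at chr7:131500262-131558217 on the minus strand of hg38 and PODXL2 at chr3:127629185-127672802 on the plus strand. EZR is at chr6:158765741-158819368 and RDX at chr11:109864295-110296712, both on the minus strand, and MSN is at chrX:65588377-65741931 on the plus strand. SLC9A3R1 is at chr17:74748628-74769353 and SLC9A3R2 at chr16:2025356-2039026, both on the plus strand. All 7 are protein-coding genes in GENCODE. EZR and SLC9A3R1 each overlap an antisense RNA gene (EZR-AS1 and SLC9A3R1-AS1), and RDX overlaps ZC3H12C on the opposite strand. PODXL overlaps the pseudogene RPL31P36 on the opposite strand, SLC9A3R1 the microRNA gene MIR3615 on its own strand, and RDX further pseudogenes and lncRNA genes on either strand, TFAMP2 among them. The libraries were directional, but whether the counting used the strand is not given in the sources used here, so reads of overlapping genes may not be told apart.

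Since the drug is directed at ETS factors, the 250 bases before each annotated start were searched on both strands for 3 ETS-type hexamers. These were CCGGAA (which can overlap with the next), CGGAAG as well as AGGAAG, and all hold the ETS core GGAA. RefSeq promoter windows (GRCh38.p14) were matched for 6 of the 7 members, 7 windows in all because MSN has 2. The set of windows used here held none for PODXL, and none was taken from the PODXL start given above. Over all 35116 windows, 14.5% held CCGGAA, 16.5% held CGGAAG, 28.7% held AGGAAG and 92.7% held the core. The 3 member windows with a hexamer are shown, with EZR, the ERM gene whose values followed those of PODXL, as the contrast. They are printed 5′ to 3′ on the strand of the gene, and capitals mark the hexamer as it stands on that strand.
MSN, chrX:65588127-65588376, plus strand: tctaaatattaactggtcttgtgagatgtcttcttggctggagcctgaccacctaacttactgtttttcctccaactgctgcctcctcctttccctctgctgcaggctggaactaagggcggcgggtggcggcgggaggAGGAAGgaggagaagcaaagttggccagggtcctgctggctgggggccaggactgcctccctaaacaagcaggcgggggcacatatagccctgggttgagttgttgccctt
MSN, chrX:65667404-65667653, plus strand: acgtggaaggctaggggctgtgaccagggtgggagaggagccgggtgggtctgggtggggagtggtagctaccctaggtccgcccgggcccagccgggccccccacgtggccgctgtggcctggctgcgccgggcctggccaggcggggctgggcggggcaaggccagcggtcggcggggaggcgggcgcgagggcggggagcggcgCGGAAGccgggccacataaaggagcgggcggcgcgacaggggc
SLC9A3R1, chr17:74748378-74748627, plus strand: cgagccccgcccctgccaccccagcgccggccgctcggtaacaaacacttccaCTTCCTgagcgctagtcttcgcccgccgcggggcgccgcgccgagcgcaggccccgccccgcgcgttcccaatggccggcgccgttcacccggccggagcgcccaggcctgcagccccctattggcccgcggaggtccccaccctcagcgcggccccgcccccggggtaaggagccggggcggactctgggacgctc
EZR, chr6:158818236-158818485, minus strand: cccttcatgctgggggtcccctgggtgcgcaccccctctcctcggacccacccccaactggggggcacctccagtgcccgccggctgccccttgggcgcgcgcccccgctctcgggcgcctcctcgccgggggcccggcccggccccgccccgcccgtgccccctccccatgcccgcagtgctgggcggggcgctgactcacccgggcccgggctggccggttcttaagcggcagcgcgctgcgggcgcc
The first MSN window held AGGAAG once and the second, at a start inside the gene, held CGGAAG once. The SLC9A3R1 window held AGGAAG once, read on the opposite strand as CTTCCT. None of the 3 hexamers was in the windows of EZR, PODXL2, RDX or SLC9A3R2, and those of EZR and PODXL2 held no GGAA core either. By the positions given above, the windows of EZR and SLC9A3R2 also lie inside their genes, and that of RDX runs into its gene. Their bases are thus not, or only in part, those before the gene starts given above. A match is a string of letters in a window and not a measured site, and the part of these hexamers in the results was not tested.

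The 6 libraries held between 16724650 and 24677433 reads on named genes. The cells carried their lineage markers: the summed level of 7 rhabdomyosarcoma markers was 70570 to 83560 normalized counts with DMSO and 78070 to 81650 with the drug, led by MYOD1, the master regulator of skeletal muscle fate, although MYF5 and MYF6 had no more than 1.71 in any library. DMSO replicate 1 had the fewest reads and stood apart, with 6.05% of them on protein-coding genes of the mitochondrial genome against 4.74% to 5.03% in the others. Its deviation from the other 2 DMSO libraries followed GC content across 13757 tested genes (Pearson r = -0.511). Values without this library are given beside many of the results that follow.

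None of the 7 members passed the test in the comparison of YK with DMSO (limma, Benjamini-Hochberg adjusted p under 0.05 over all genes tested), against a background of 3.41% of tested genes (1.26% higher and 2.15% lower). At an unadjusted p under 0.05 there was 1 member (SLC9A3R2), where 18.7% of all tested genes reached that level. edgeR on the recovered reads called 0 members (3.34% of all genes), with 1 at an unadjusted p under 0.05 (18.4% of all genes). DESeq2 called 0 members (4.85% of all genes given an adjusted p), with 0 at the unadjusted level (15.2% of all genes). The values of the drug and vehicle libraries did not overlap for 3 members, PODXL and EZR being lower with the drug and SLC9A3R2 higher, where 26.0% of all tested genes did not overlap (15.1% lower and 10.9% higher). That holds on the authors' size-factor scale, and the count was 3 with TMM scaling (26.1% of all tested genes), 2 with quantile normalization (EZR and SLC9A3R2, 24.5% of all tested genes) and 1 when counts were scaled to library totals (SLC9A3R2, 26.4% of all tested genes). The members' median log2 fold change was -0.07, against -0.01 over all tested genes.

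**Figure D1:**
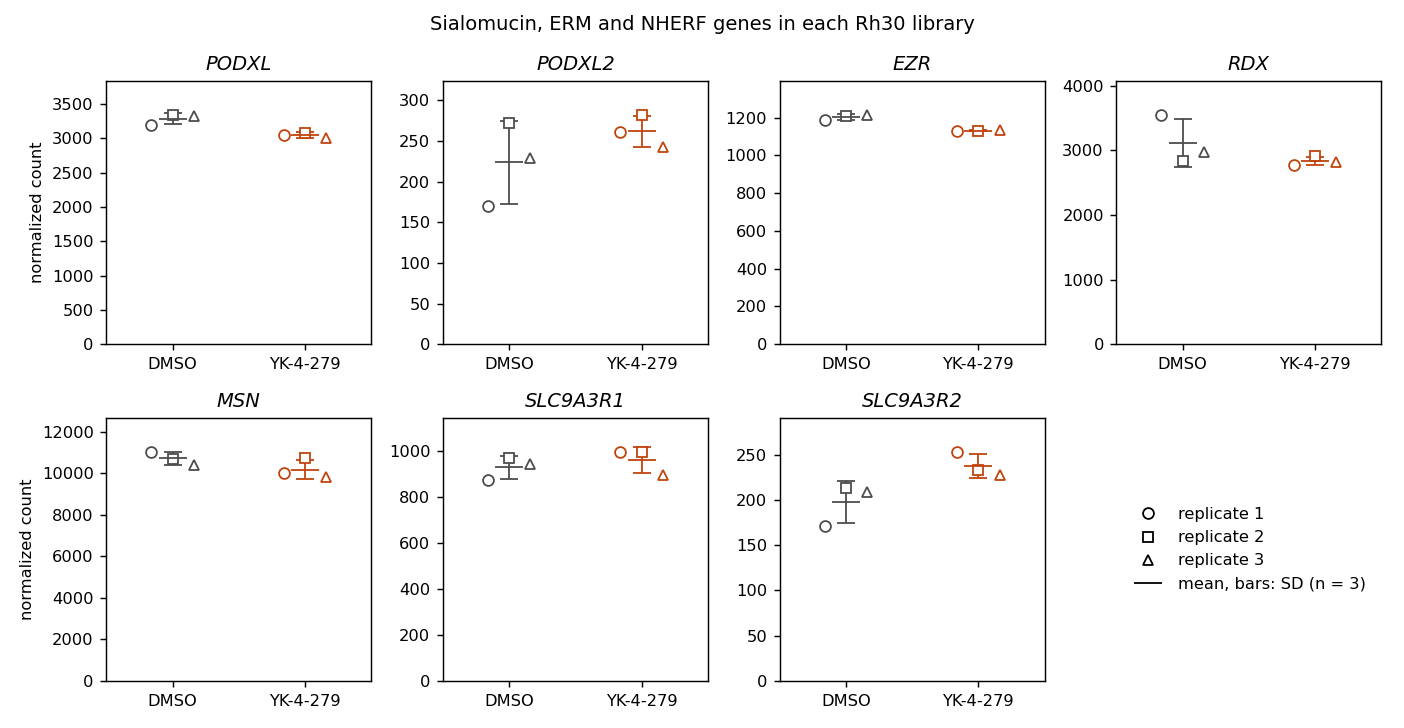
Normalized count (y axis, from 0, scaled per gene) of the 7 genes in the 3 DMSO and 3 YK libraries, each symbol being a replicate and the bars the mean and SD (n = 3). PODXL and EZR lie lower and SLC9A3R2 lies higher in every drug-treated library, with small gaps on this scale of size factors, and DMSO replicate 1 is the lowest for PODXL2 and the highest for RDX.

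PODXL, the sialomucin itself, was abundant in Rh30 cells and, on the size-factor scale, slightly lower in every drug-treated library. It had 3198, 3335 and 3327 normalized counts across DMSO replicates 1 to 3, and 3056, 3083 and 3009 across the 3 YK replicates in the same order. The groups did not overlap on this scale, and the lowest vehicle value was DMSO replicate 1. Scaled to library totals they did overlap, YK replicate 1 at 25.65 lying above DMSO replicate 1 at 25.33 reads per length and depth (RPKM). The means were 3287 ± 77.3 and 3049 ± 37.7 (SD, n = 3 each), a 0.928-fold level. On the log2 scale this was -0.11 ± 0.06 (SE, 95% confidence interval -0.23 to 0.01, limma, adjusted p = 0.313), and with quantile normalization it was -0.04 (limma, adjusted p = 0.704). By comparison, 47.8% of tested genes had a smaller change in either direction. Without DMSO replicate 1 the change was -0.13 ± 0.04 (limma, adjusted p = 0.0346), so PODXL was then the 1 member of 7 to pass the test, where 13.1% of all genes tested passed it (8.45% lower and 4.63% higher). After a spline on GC content and length was subtracted from each library it was -0.15 ± 0.04 (adjusted p = 0.0164), again the 1 member of 7, with a background of 14.0% (10.5% lower and 3.55% higher).

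PODXL2, which encodes endoglycan, another CD34-type sialomucin and a selectin ligand, was far less abundant per transcript length and varied among the vehicle libraries. It had 170.2, 272 and 230 normalized counts across DMSO replicates 1 to 3, and 261, 281 and 243 across the 3 YK replicates in the same order. The groups overlapped, since DMSO replicate 2 lay above 2 of the drug-treated libraries and DMSO replicate 1 lay well below all others. The means were 224 ± 51.0 and 262 ± 19.2 (SD, n = 3 each). The log2 fold change of 0.25 ± 0.15 (SE, 95% confidence interval -0.07 to 0.57, limma, adjusted p = 0.386) became 0.07 without DMSO replicate 1 (adjusted p = 0.758) and 0.40 without DMSO replicate 2 (adjusted p = 0.105). The coefficient of variation of PODXL2 with DMSO was 22.8%, against 6.63% from counting alone, and for PODXL it was 2.35% against 1.74%. Over DMSO replicates 2 and 3 alone it was 11.9% for PODXL2 and 0.175% for PODXL.

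The balance of the sialomucins was not shown to differ between the groups. The log2 ratio of PODXL to PODXL2 normalized counts within a library averaged 3.90 ± 0.31 in vehicle and 3.54 ± 0.09 in treated libraries (SD, n = 3 each), a difference of -0.36 (2-sided exact permutation test, p = 0.2, Benjamini-Hochberg adjusted p = 0.5 over 5 ratios). With 3 libraries against 3 this test has 20 assignments and cannot give a p below 0.1. Without DMSO replicate 1 the difference was -0.19. Per transcript length, PODXL made up 79.9% to 87.2% of the pair in the 6 libraries. CD34, the founder of the family, was measured at a mean of only 20.2 normalized counts.

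Among the ERM genes, EZR (ezrin) was lower in every drug-treated library by a small margin on the size-factor scale, whereas RDX (radixin) and MSN (moesin) overlapped between the groups. EZR had 1188, 1210.1 and 1212 normalized counts across DMSO replicates 1 to 3, and 1129, 1131 and 1133 across the 3 YK replicates in the same order. The highest drug-treated value lay under the lowest vehicle value on this scale. The coefficient of variation of the drug-treated values was 0.142% here and 1.38% when counts were scaled to library totals, both below the 2.93% that counting alone gives. With library totals, YK replicates 1 and 3 (RPKM of 18.6 and 18.7) lay above DMSO replicate 1 (18.45) and the groups overlapped. The means of 1203 ± 13.6 and 1131 ± 1.61 (SD, n = 3 each) differed by -0.09 ± 0.06 on the log2 scale (SE, 95% confidence interval -0.22 to 0.05, limma, adjusted p = 0.47). It was -0.10 without DMSO replicate 1 (adjusted p = 0.241) and -0.12 with the GC and length trend removed (adjusted p = 0.0866), and -0.05 with quantile normalization (adjusted p = 0.715).

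RDX depended on the vehicle libraries included in its comparison. Its normalized counts were 3541, 2832 and 2972 across DMSO replicates 1 to 3, and 2778, 2907 and 2815 across the 3 YK replicates in the same order. DMSO replicate 1 was the highest of all, and without it the vehicle libraries lay on both sides of the highest drug-treated one. The means were 3115 ± 375 and 2833 ± 66.3 (SD, n = 3 each), with a log2 fold change of -0.13 ± 0.08 (SE, 95% confidence interval -0.30 to 0.04, limma, adjusted p = 0.387). Without DMSO replicate 1 it was -0.03 (adjusted p = 0.684), and without DMSO replicate 2 it was -0.20 (limma, adjusted p = 0.149).

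MSN had the highest normalized counts of the members, at rank 245 of the tested genes by mean. It had 11014, 10694 and 10410.1 normalized counts across DMSO replicates 1 to 3, and 10024, 10707 and 9790 across the 3 YK replicates in the same order. The groups overlapped through YK replicate 2, which lay above 2 vehicle libraries. The log2 fold change was -0.07 ± 0.06 (SE, 95% confidence interval -0.19 to 0.05, limma, adjusted p = 0.507), from 10706 ± 302 to 10174 ± 476 (SD, n = 3 each). It was -0.11 without YK replicate 2, -0.05 without YK replicate 3 and -0.02 with quantile normalization (limma, adjusted p = 0.803).

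The makeup of the ERM family was not shown to differ either. Per transcript length, MSN made up 69.9% to 72.4% of the ERM reads, RDX 17.2% to 20.3% and EZR 9.79% to 10.7% over the 6 libraries. The log2 ratio of EZR to MSN normalized counts was -3.15 with DMSO and -3.17 with the drug (exact permutation test, p = 0.7, adjusted p = 0.875). That of RDX to MSN was -1.79 and -1.84 (exact permutation test, p = 0.7, adjusted p = 0.875). For EZR to RDX it was -1.37 and -1.33 (exact permutation test, p = 1, adjusted p = 1). The sign of each of these 3 differences turned when a single library was left out.

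Of the scaffold genes, SLC9A3R2 was somewhat higher in every drug-treated library and SLC9A3R1 overlapped between the groups. SLC9A3R2 (NHERF2) had 171, 213 and 209 normalized counts across DMSO replicates 1 to 3, and 253, 233 and 227 across the 3 YK replicates in the same order. The groups did not overlap, and DMSO replicate 1 was the lowest and YK replicate 1 the highest. The means of 198 ± 22.8 and 237 ± 13.5 (SD, n = 3 each) gave a log2 fold change of 0.27 ± 0.12 (SE, 95% confidence interval 0.02 to 0.52, limma, adjusted p = 0.233). By comparison, 82.3% of tested genes had a smaller change in either direction. Without DMSO replicate 1 it was 0.17 (95% confidence interval -0.05 to 0.39, limma, adjusted p = 0.343). It was 0.18 with the GC and length trend removed (95% confidence interval -0.02 to 0.38, limma, adjusted p = 0.235). These intervals are for a single gene, without adjustment for the number of genes tested.

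SLC9A3R1 (NHERF1) had 874, 973 and 944 normalized counts across DMSO replicates 1 to 3, and 997, 996 and 899 across the 3 YK replicates in the same order. The groups overlapped, with YK replicate 3 below 2 vehicle libraries. Its log2 fold change was 0.05 ± 0.07 (SE, 95% confidence interval -0.11 to 0.21, limma, adjusted p = 0.755), and it was 0.007 without DMSO replicate 1 (adjusted p = 0.96) and -0.05 with the GC and length trend removed (adjusted p = 0.64), so no direction can be given. The log2 ratio of SLC9A3R1 to SLC9A3R2 was 2.35, 2.19 and 2.18 in the DMSO libraries and 1.98, 2.10 and 1.99 in the drug-treated ones. It was lower in every drug-treated library, with a difference of -0.22 between the means (exact permutation test, p = 0.1, the smallest this design allows, adjusted p = 0.5 over 5 ratios), and -0.16 without DMSO replicate 1. Per transcript length, SLC9A3R2 made up 16.4% ± 0.889 of the pair in vehicle and 18.5% ± 0.697 in treated libraries (SD, n = 3 each).

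**Figure D2:**
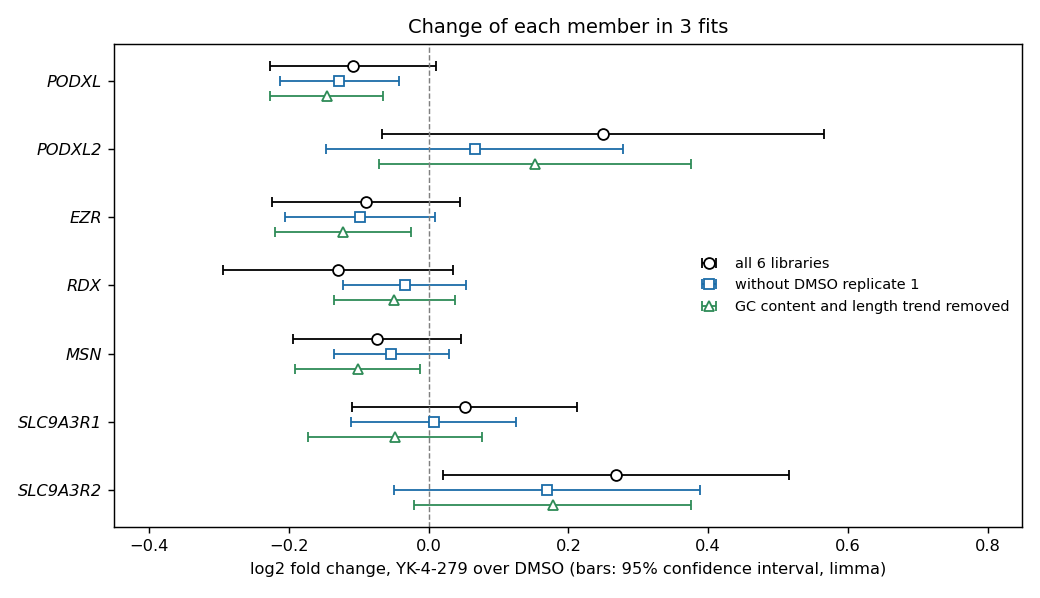
Log2 fold change of YK over DMSO (x axis, bars the 95% confidence interval from limma) for each of the 7 genes with all 6 libraries (circles), without DMSO replicate 1 (squares) and with the trend on GC content and length removed (triangles). PODXL lies between -0.11 and -0.15 in the 3 fits drawn (-0.04 with quantile normalization, not drawn), whereas PODXL2 goes from 0.25 to 0.07 and RDX from -0.13 to -0.03 without that library.

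The members whose values in DMSO replicate 1 lay furthest from the other vehicle libraries were those with the highest and lowest GC content. Relative to the mean of DMSO replicates 2 and 3, log2 values in DMSO replicate 1 were lower, differing by -0.55 for PODXL2, -0.30 for SLC9A3R2 and -0.13 for SLC9A3R1, whose transcripts have a GC content of 64.1%, 67.2% and 61.7%. They were higher by 0.29 for RDX, at 37.4% GC. PODXL, EZR and MSN, at 50.3% to 51.6% GC, differed by -0.06, -0.03 and 0.06. The Pearson r of this difference with GC content was -0.895 over the 7 genes, which share that library. With the GC and length trend removed, the log2 fold change was 0.15 for PODXL2 (limma, adjusted p = 0.379) and 0.18 for SLC9A3R2 (limma, adjusted p = 0.235). It was -0.05 for RDX (limma, adjusted p = 0.474) and -0.10 for MSN (limma, adjusted p = 0.124). The part of GC content in the results was not tested beyond the trend-removed values given here and above.

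**Figure D3:**
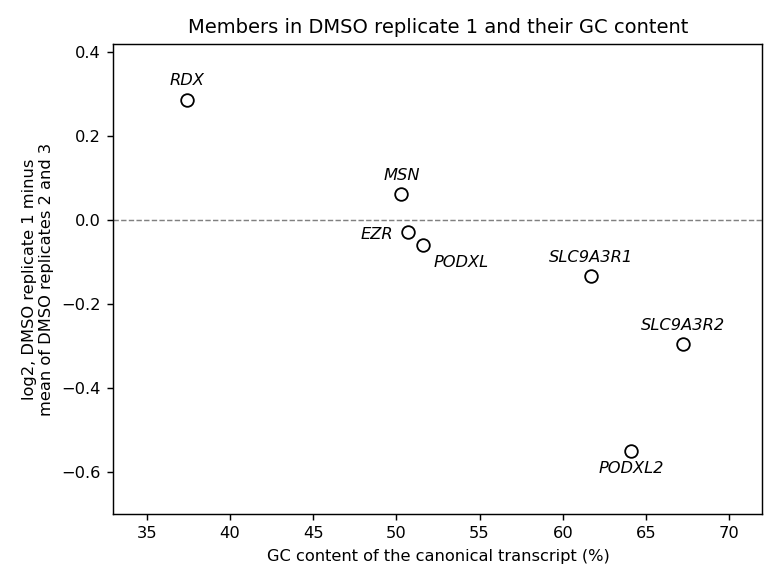
Difference between DMSO replicate 1 and the mean of DMSO replicates 2 and 3 (y axis, log2 normalized count) against GC content of the canonical transcript (x axis, percent), 1 point for each of the 7 genes. The 3 GC-rich genes lie below 0, RDX at 37.4% GC lies highest at 0.29, and PODXL, EZR and MSN lie near 0.

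Set on a scale that allows genes to be compared, reads scaled to transcript length and library total (RPKM), moesin was the leading member by a wide margin. MSN stood at 129.9 ± 2.16 in vehicle and 128 ± 4.25 in treated libraries (SD, n = 3 each). RDX followed at 34.0 ± 3.73 and 32.2 ± 0.357, and PODXL at 26.4 ± 0.915 and 25.4 ± 0.218. SLC9A3R1 (22.4 ± 1.45 and 24.1 ± 1.28) was next and EZR (18.95 ± 0.434 and 18.5 ± 0.254) below it. PODXL2 (4.95 ± 1.16 and 6.002 ± 0.366) and SLC9A3R2 (4.40 ± 0.552 and 5.48 ± 0.343) came last, and their values overlapped in both groups. The other neighbours in this order did not overlap in any library, but with the drug the means of PODXL and SLC9A3R1 were about 1 SD of SLC9A3R1 apart, the lowest PODXL library being at 25.3 and the highest SLC9A3R1 library at 25.1. These levels assume the canonical transcript of each gene.

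**Figure D4:**
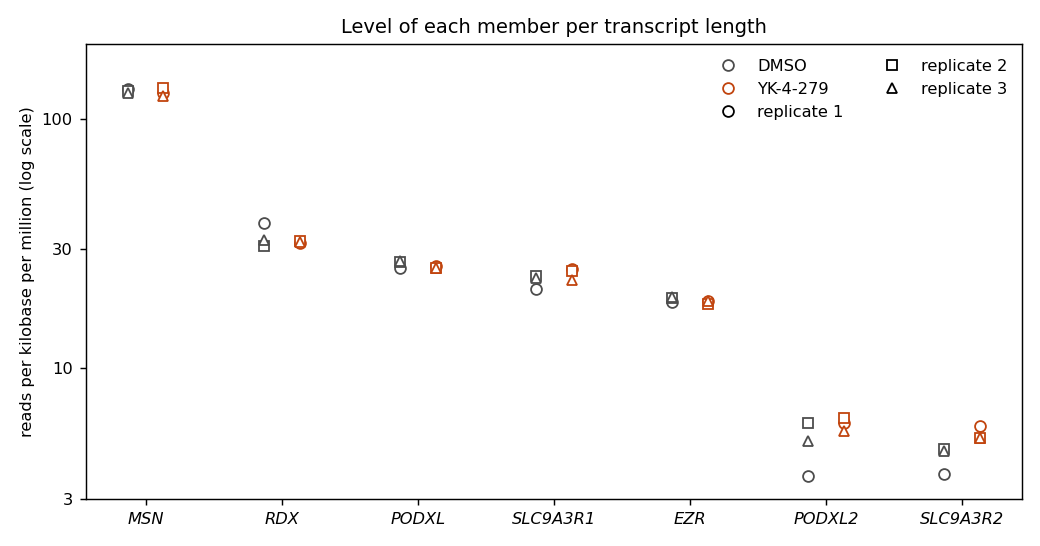
Reads scaled to transcript length and library total (RPKM, y axis, log scale) of the 7 genes in each of the 6 libraries, with vehicle in grey and drug in orange and the replicate given by the symbol. MSN lies between 124.3 and 132.7, and PODXL2 and SLC9A3R2 lie lowest and overlap.

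Across the 6 libraries PODXL and EZR ran together (Pearson r = 0.971 over 6 libraries on the log2 scale, with the authors' size factors). The 3 GC-rich members PODXL2, SLC9A3R1 and SLC9A3R2 also ran together (r = 0.758 to 0.864), and RDX ran opposite to PODXL2 (r = -0.918), SLC9A3R2 (r = -0.914) and SLC9A3R1 (r = -0.693). MSN lay between, at 0.69 with RDX, 0.577 with PODXL and -0.694 with SLC9A3R2. These are descriptions over libraries that share their treatment and, in DMSO replicate 1, a shift with GC content. Among genes with a mean of at least 100, those with the pattern most like PODXL were CDCA4, a cell cycle gene (r = 0.996), ADCY3, an adenylyl cyclase (r = 0.994), ZDHHC14, a protein palmitoyltransferase (r = 0.994), LIX1L (r = 0.991) and MYMX, the muscle fusion peptide myomixer (r = 0.991). Of these 5 only CDCA4 passed the test, at -0.41 on the log2 scale (limma, adjusted p = 0.00862). EZR was most like ASF1B, a histone chaperone (r = 0.998, log2 fold change -0.31, limma adjusted p = 0.0122) and CPSF7, a factor of RNA 3′ end formation (r = 0.997). The nearest to RDX were RAI14, which encodes an actin-binding protein (r = 0.999), and the clock gene CRY1 (r = 0.998), and to PODXL2 TMEM9 (r = 0.999) and NIBAN2 (r = 0.998). MSN was most like FBLN5, an elastic fibre protein (r = 0.991), and MEGF9 (r = 0.985). SLC9A3R1 was most like the splicing helicase gene DHX16 (r = 0.996) and EBPL (r = 0.990), and SLC9A3R2 most like the tyrosine kinase gene ABL1 (r = 0.997) and OSR2 (r = 0.997).

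The wider podocalyxin and ERM machinery was counted in the same way. Of 113 genes in lists of partners, relatives, regulators and modifying enzymes, 90 were tested, and with the drug 34 were higher and 56 lower. None passed limma's test, and 20 had an unadjusted p under 0.05, a level that 18.7% of all tested genes reached. edgeR called 0 (3.34% of all genes). DESeq2 called 2 (4.85%), named after their values were seen, which were SYTL2 at 0.20 (adjusted p = 0.0403) and EPB41, a membrane skeleton gene, at -0.22 (adjusted p = 0.0437). Without DMSO replicate 1, limma called 10 of them, 3 higher and 7 lower, where it called 13.1% of all genes. With the GC and length trend removed it called 14.0% of all genes. Of the listed genes it then called 0 membrane partners, 1 higher and 2 lower FERM relatives, and 3 lower ERM regulators. It also called 1 higher PDZ partner, 1 higher and 2 lower trafficking genes, 2 lower glycosylation genes and 1 lower PODXL regulator.

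ERM proteins anchor a set of membrane proteins besides podocalyxin, and 8 of 13 listed were tested (6 higher, 2 lower, median 0.09 on the log2 scale). The median without DMSO replicate 1 was 0.03 over 9 tested, and 2 of the higher ones, CD34 (-0.03) and the adhesion gene L1CAM (-0.03), were then lower. SDC2, the heparan sulfate proteoglycan syndecan-2, had the highest mean of them and stood at 4483 ± 107 and 4096 ± 135 normalized counts (SD, n = 3 each; log2 fold change -0.13 ± 0.06, limma, adjusted p = 0.23). CD44, a classic ERM anchor, had a mean of 0.769 normalized counts and was too low to test. Of 14 genes for FERM domain relatives of the ERM proteins 13 were tested, 5 higher and 8 lower, with a median of -0.05 (-0.04 without DMSO replicate 1). EPB41L2, a gene of the membrane skeleton and the highest by mean, stood at 4244 ± 235 and 3986 ± 102 (adjusted p = 0.443).

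Of the regulators of ERM proteins, 12 of 17 tested were lower (5 higher, median -0.09), where 7246 of all 13930 genes were lower. RHOA, the GTPase that acts upstream of the ROCK kinases on ERM proteins, was the highest by mean and had 10934, 9895 and 9866 normalized counts across DMSO replicates 1 to 3, and 8780.4, 9147 and 8740.4 across the 3 YK replicates in the same order. Every drug-treated value lay under every vehicle value, with DMSO replicate 1 the highest. The log2 fold change was -0.20 ± 0.06 (limma, adjusted p = 0.0761) and, without that library, -0.15 (adjusted p = 0.00474). Without DMSO replicate 1 the list's median was -0.02, against -0.01 over all genes, and its other calls were ARHGDIA at -0.21 (adjusted p = 2.2e-04), and PPP1CA, a catalytic subunit of the phosphatase PP1, at -0.15 (adjusted p = 0.0194), both named after their values were seen.

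PDZ scaffolds and their ligands showed 3 higher and 6 lower of 9 tested (median -0.02, and 0.02 without DMSO replicate 1), with TJP1, the junction scaffold ZO-1, at 3251 ± 372 and 3231 ± 145 normalized counts (adjusted p = 0.989). Genes of apical trafficking and polarity, through which podocalyxin reaches the surface in epithelia, showed 4 higher and 13 lower of 17 tested (median -0.05, and -0.003 without DMSO replicate 1). ITGB1, integrin beta 1, was the highest of them by mean at 8668 ± 968 and 7368 ± 202 (log2 fold change -0.23 ± 0.07, limma, adjusted p = 0.0994, and -0.14 without DMSO replicate 1, adjusted p = 0.0119). In that fit SYTL2, a Rab27 effector named after its values were seen, was higher by 0.22 (adjusted p = 5.41e-05). The enzymes that build and sialylate mucin-type glycans showed 8 higher and 12 lower of 20 tested (median -0.02, and -0.04 without DMSO replicate 1), with GALNT2, which starts O-glycans, at 2898 ± 174 and 2945 ± 135 (adjusted p = 0.879). The remaining calls without DMSO replicate 1, also named after their values were seen, were EPB41 at -0.20 (adjusted p = 0.00176) and FRMD6 at 0.27 (adjusted p = 0.00174) among FERM relatives, PDGFRA at 0.42 (adjusted p = 2.67e-04) among NHERF ligands, GALNT1 at -0.17 (adjusted p = 0.0436) among glycosylation enzymes and FOXO1 at -0.14 (adjusted p = 0.047) among regulators of PODXL.

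Genes for regulators of PODXL were split 3 and 3 among 6 tested, with a median of -0.01 that became 0.03 without DMSO replicate 1. ETS1 mRNA, the highest by mean, averaged 3359 ± 150 in vehicle libraries against 3370 ± 29.3 in treated ones (SD, n = 3 each; log2 fold change 0.01, limma, adjusted p = 0.974). KDM3A, the histone demethylase that works with ETS1, stood at -0.03 (adjusted p = 0.893), and at 0.09 without that library (adjusted p = 0.233). The fusion transcript shares its ends with PAX3 and FOXO1, which stood at 0.07 (adjusted p = 0.616) and -0.25 (adjusted p = 0.128), and gene counts do not separate it from the normal alleles. FOXO1 was at -0.25 with the GC and length trend removed (limma, adjusted p = 0.00952) and at -0.14 without DMSO replicate 1 (limma, adjusted p = 0.047). WT1, the activator of podocalyxin in podocytes, was listed at 0 in every library. KDM3A, PAX3 and WT1, like CD34, CD44 and L1CAM, were named after their values were seen. Selectins, which bind sialomucin glycans, were not tested because all 3 were at or near 0.

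**Figure D5:**
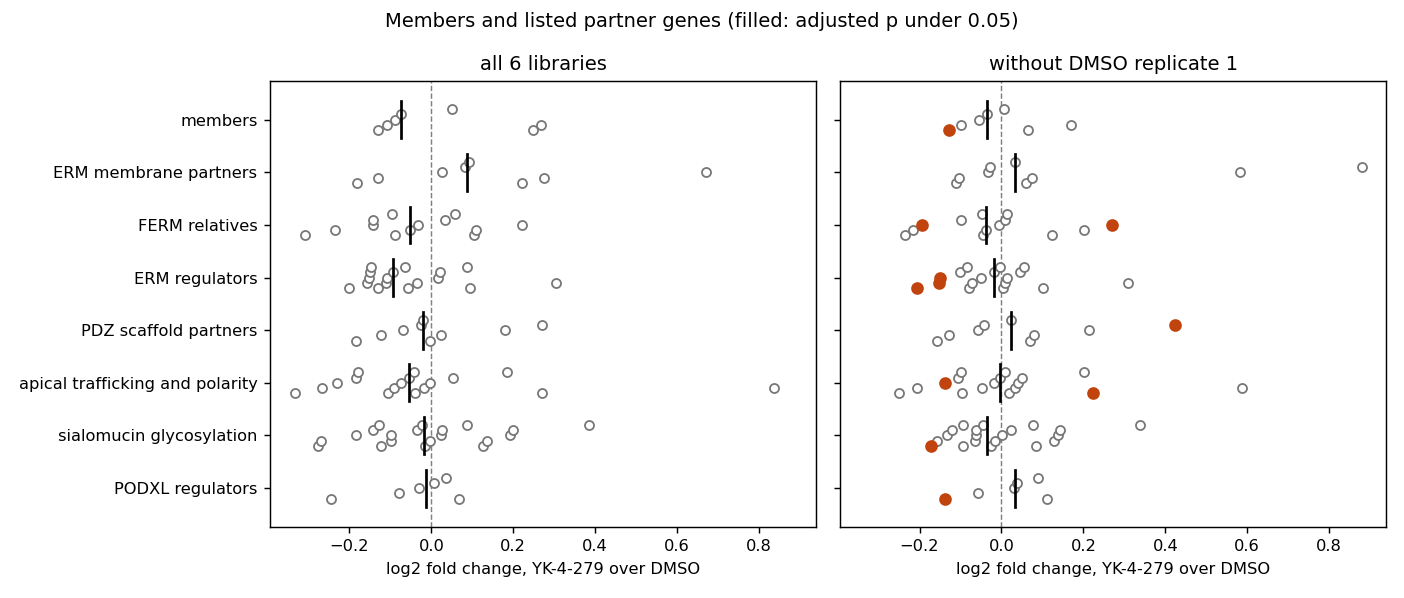
Log2 fold change of YK over DMSO (x axis) for each tested gene of the 7 members and of 7 lists of partner genes, with all 6 libraries on the left and without DMSO replicate 1 on the right. Bars mark the median of a list and filled points an adjusted p under 0.05 (limma), none on the left and, on the right, PODXL and 10 listed genes.

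Podocalyxin is also a marker of podocytes, endothelium and some epithelia, so markers of those cells were read in the same libraries. NPHS1, which encodes nephrin of the podocyte slit diaphragm, was at 0 in every library. The summed level of the 6 podocyte markers was 646.8 to 887.3 normalized counts with DMSO and 960.5 to 1014 with the drug, nearly all of it SYNPO, an actin-associated gene that other cells also express. The 9 endothelial markers summed to 321.5 to 423.7 and 319.6 to 345.2, most of it TEK. The 7 epithelial markers summed to 139.9 to 147.8 and 147.8 to 193.7, with CDH1 at 1.71 in 1 library and otherwise 0, and ESRP1 at 0 in all. The 6 leukocyte markers summed to 2.52 to 5.01 and 5.998 to 13.01. Of these 4 lists 6 endothelial, 4 epithelial, 1 podocyte and 0 leukocyte markers were high enough to test, and none of those passed. The part of other cell types in the member values was not tested.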

How the data were processed

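RNA was measured in 6 Rh30 libraries, 3 per group, grouped by the treatment in the labels. Per the study's methods and the submitters' processing notes, the authors checked reads with FastQC 0.11.8 and MultiQC 1.8, trimmed them with BBDuk, used STAR 2.7.9a for alignment to hg38 and for gene counts, and compared groups with DESeq2 1.44.0. The gene annotation was not given in the sources used here. What the authors deposited is a signal per gene, called normalized counts here, that is, reads divided by a size factor of each library. All values gave whole reads (100%, tolerance 0.001). Of 35269 table entries, 1 without a name (at most 6 reads) was left out, and 0 per-sample columns were left unused.

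Genes with a mean of at least 10 were tested on log2(normalized count + 1) with limma 3.58.1 (lmFit, eBayes with trend, 2-sided, Benjamini-Hochberg over all 13930 genes) in R 4.3.3, so fold changes of low genes are understated. The 5 ratios used exact permutation tests and have no pseudocount. RPKM used recovered reads, library totals and the GENCODE canonical transcript. GC content and length were known for 98.8% of tested genes, and the trend was a spline with 5 degrees of freedom per library. Markers and lists were described by counts and medians. The members and lists were chosen with earlier results of these data known. Genes named were the 7 members, the gene with the highest mean and up to 4 called genes of each list, and the genes most like each member by Pearson r, besides cell type markers and genes said to be named after their values were seen. The code was tested on simulated counts. Alternatives were pseudocounts of 0.5 and 10, no filter and a minimum mean of 100, quantile or TMM scaling, a replicate block, eBayes without trend, the GC and length trend removed, each library left out, and count tests of recovered reads with edgeR 4.0.16 and DESeq2 1.42.0.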

Additional observations from a re-analysis of the deposited data

How the results depend on the processing

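All 18 alternatives kept the direction of 6 of the 7 members, and SLC9A3R1 was reversed to -0.048 with the GC and length trend removed. The number of members called was 1 (PODXL) with that trend removed, 1 when DMSO replicate 1 was also left out (-0.16 for PODXL, limma, adjusted p = 0.00101, chosen after seeing the data), and 0 to 1 over the 6 fits that leave out a library, the 1 being without DMSO replicate 1. Over all alternatives the adjusted p of PODXL ran from 0.00101 to 0.704, and its log2 fold change from -0.16 to -0.04, the latter with quantile normalization, which also gave -0.05 for EZR, -0.08 for RDX and -0.02 for MSN. How many members did not overlap between the groups (3, with 26.0% of all tested genes) was 3 with TMM scaling (26.1%), 2 with quantile normalization (24.5%) and 1 with library totals (26.4%), counts added after seeing the data. The number of genes changed, 475 (176 higher, 299 lower), was 277 (132 and 145) with quantile normalization, 33 (30 and 3) with eBayes without trend, 1954 (494 and 1460) with the GC and length trend removed, 2472 (652 and 1820) with that and without DMSO replicate 1, and 19 to 1827 when a library was left out. It was 1827 without DMSO replicate 1, 242 without DMSO replicate 3, and 19, 25 and 46 without YK replicates 1, 2 and 3. The cause was not tested. With the replicate number as a block 180 genes (79 and 101) and 0 members were called, but the numbers did not pair the libraries: deviations of same-numbered libraries correlated at -0.0985, -0.0269 and -0.0267, and 0 of 6 libraries correlated best with their own number. Leaving out a library moved the differences in log2 ratio to between -0.045 and 0.022 for EZR to MSN (0.010 without DMSO replicate 3, 0.022 without YK replicate 2), between -0.12 and 0.019 for RDX to MSN (0.019 without DMSO replicate 1), between -0.065 and 0.11 for EZR to RDX (-0.065 without DMSO replicate 1), between -0.50 and -0.19 for PODXL to PODXL2, and between -0.26 and -0.16 for SLC9A3R1 to SLC9A3R2. Depth limits PODXL2 and SLC9A3R2 most, at 135 to 305 and 136 to 295 reads a library.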
